A study of Lotus japonicus with 10 samples.

Results

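Chalcone synthases, chalcone isomerases and polyketide reductases make the flavonoid and isoflavonoid skeleton, and their transcripts were followed in the legume Lotus japonicus, accession MG20, in mature leaves elicited with glutathione (GSH). The members are all genes on the array whose name begins with CHS, CHI, PKR or CHR followed by a digit. The names CHR01, CHR04 and CHR05 were left out by that rule and are given with the rest of the pathway. This gave 48 names with 96 probes, of 3148 names with 5716 probes on the array. The names are read here as chalcone synthase (CHS, 56 probes for 28 names), chalcone isomerase (CHI, 12 probes for 6 names), polyketide reductase (PKR, 10 probes for 5 names) and chalcone reductase (CHR, 18 probes for 9 names), since the files give family abbreviations without descriptions.

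Total RNA was hybridised to 10 one-colour arrays, 1 per sample: 3 from GSH 3 h leaves, 3 from GSH 6 h leaves and 4 from unelicited leaves, which the labels give a time of 0 h. For elicitation, leaves taken off the plant were kept under a 10 mM GSH solution for 3 or 6 h, with shaking (200 rpm) at 28 °C. There was no group of leaves kept in liquid without GSH, so each comparison with unelicited leaves covers detachment, submersion, shaking, warmth and elapsed time together with GSH, and these cannot be told apart. The series describes samples of 1 group as biological replicates; it does not say whether they share plants, so p-values measure the spread between these samples.

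Chalcone synthase, a type III polyketide synthase, condenses a coumaroyl-CoA starter with malonyl-CoA to a chalcone, and in legumes it is encoded by a large gene family. Polyketide reductase, also called chalcone reductase, acts together with chalcone synthase so that the product forms without a hydroxyl group. This leads to the 5-deoxy isoflavonoids from which Lotus makes its phytoalexin vestitol. Chalcone isomerase closes the chalcone to a flavanone. The plant type III polyketide synthase family also holds enzymes outside flavonoid synthesis, such as those that make pollen wall precursors in Arabidopsis anthers, and a CHS name alone does not separate these.

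Values are log2 signals, the log2 of the deposited signal minus the array's 75th percentile, so 0 is the level of the 75th percentile, and levels of different probes are not compared. Between 3168 and 3805 probes were well above background on each unelicited array and between 2644 and 3063 on each GSH array. The part of this difference in the results was not tested. No spot was saturated, and precision is limited by the 3 or 4 arrays in a group. Unelicited replicates 1 and 2 were on slide 1, and the other 8 arrays, unelicited replicates 3 and 4 among them, were on slide 2. Between the unelicited arrays of slide 2 and slide 1 the median difference was −0.01 over all tested probes, but it was 1.10 for the CHS probes, 0.80 for CHI, −0.04 for PKR and −1.64 for the 2 tested CHR probes, and its part in the results was not tested beyond the slide 2 values given below. The leaf label was checked with CYP79D3, a cytochrome P450 of cyanogenic glucoside synthesis in aerial tissue. Both of its probes were well above background on all unelicited arrays and on none of the GSH arrays. Of 12 probes for leaf polarity YABBY names, 2 were well above background on all 3 h arrays and 4 on all 6 h arrays, against 8 on all unelicited arrays. Of the 2 probes of the root gene CYP79D4, 1 was seen on some unelicited arrays, neither on all, and neither on any GSH array. Of the 6 LEAFY (flower) probes, 1 was seen on some 6 h array and none on any 3 h or unelicited array. The part of these markers in the results was not tested. In such bulk samples fewer cells of a type and less RNA per cell cannot be told apart.

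At 3 h most chalcone synthase names and all polyketide reductase names stood far above their level in unelicited leaves, while a smaller set of chalcone synthases stood far below. A chalcone isomerase (CHI05) and a chalcone reductase (CHR02) also stood below, with 1 or more 3 h arrays not well above background. The 3 h calls of CHI05 were lost under another background correction. Of the 96 member probes, 74 reached the detection level of the scanner software (well above background) throughout 1 group or more and were tested. At 3 h 46 of these rose, 18 fell and 10 did not pass, where 74.2% of all 3309 tested probes passed, 37.5% up and 36.7% down (adjusted p under 0.05, limma). Among those that fell, both probes of CHI05 and CHR02 and 1 each of CHS11 and CHS02 were tested only through the unelicited arrays. For these a fall was favoured beforehand, as a rise was for 1 PKR2 probe tested only through the 3 h arrays. The median log2 fold change of the 74 was 5.54, a 46.5-fold difference, against −0.05 over all tested probes, and it was 4.50 on slide 2 alone. At 6 h 46 rose, 16 fell and 12 did not pass, where 75.9% of all tested probes passed, 37.5% up and 38.4% down, and the median was 5.58, or 4.73 on slide 2 alone. All arrays of the 2 groups were apart for 65 of the 74 at 3 h and 63 at 6 h, where this held for 75.6% and 74.3% of all tested probes. Both comparisons use the same 4 unelicited arrays.

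Counted by name, 23 of the 48 names rose on both probes at 3 h and 23 at 6 h. The share over all names was not counted, and by probe 37.5% of all tested probes rose at each time. At 3 h 8 names fell on both probes and 2 more on 1 probe, and at 6 h 8 fell on both. No name had probes that passed in opposite directions in these 2 comparisons. Probes of 1 name differed in log2 fold change by a median of 0.36 and at most 4.44 at 3 h. With the unelicited arrays of slide 2 alone, 47 probes rose and 23 fell at 3 h (of all probes, 78.0% passed, 39.9% up and 38.2% down), and 48 rose and 18 fell at 6 h (79.1%, with 39.6% each way). All 46 probes that rose with all arrays also rose there, at both times.

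**Figure D1:**
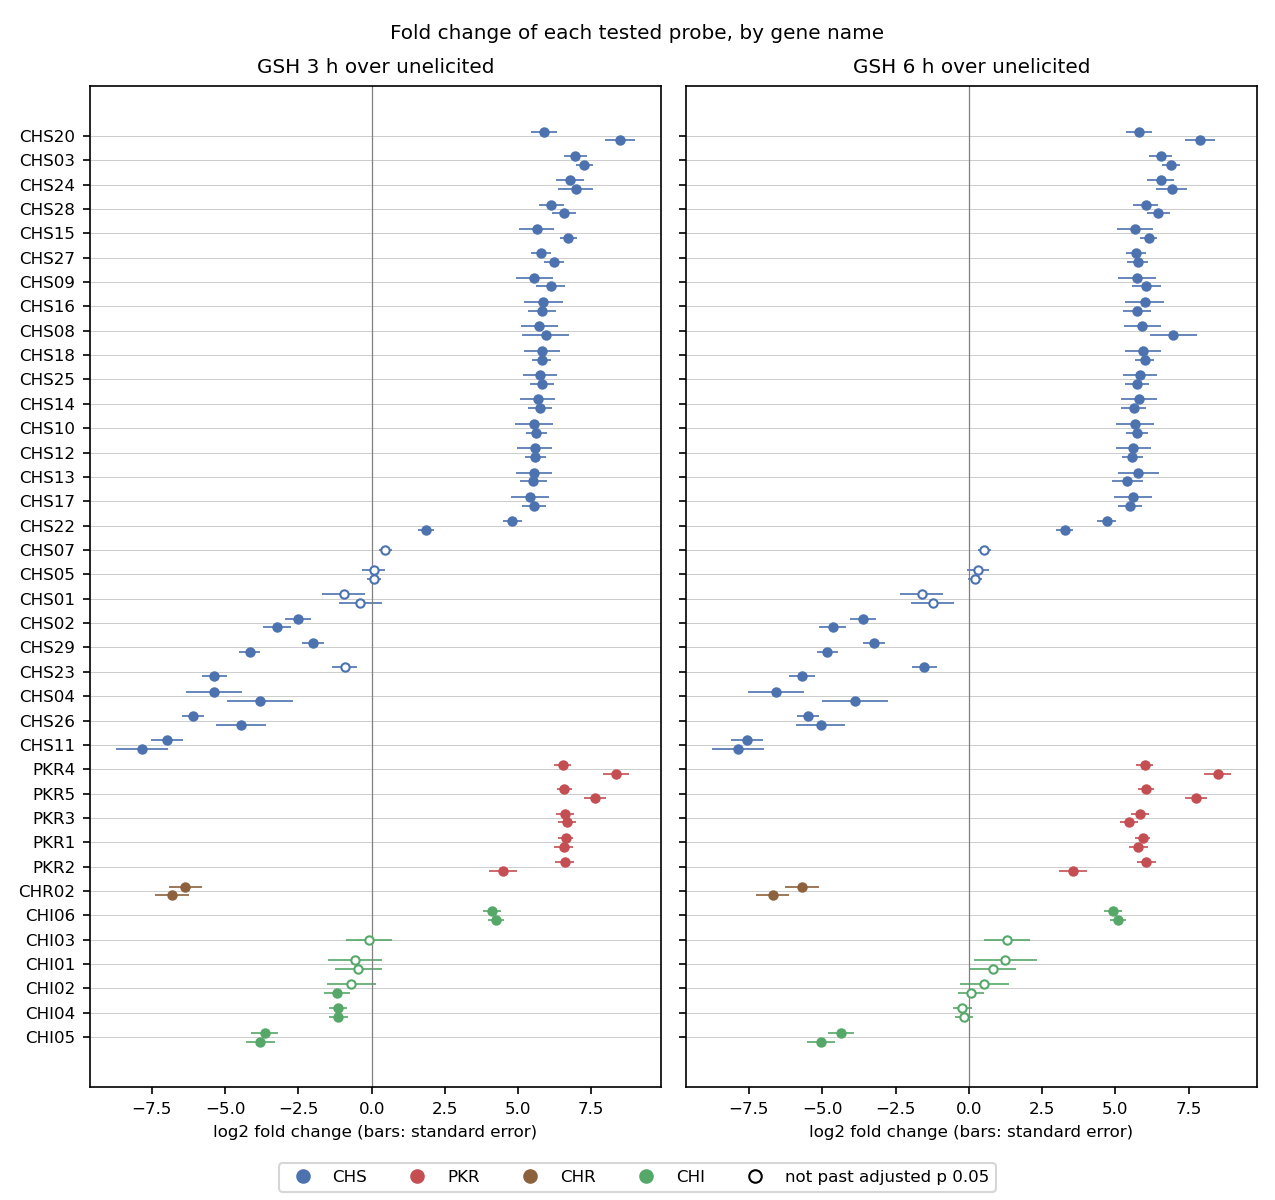
Log2 fold change of each tested member probe over unelicited leaves at 3 h (left) and 6 h (right), with standard errors, in rows by gene name and coloured by family; open points did not pass adjusted p 0.05. In both panels 17 CHS names, the 5 PKR names and CHI06 lie to the right with both probes, and CHS11, CHS26, CHR02 and CHI05 lie far to the left.

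Among chalcone synthases, 17 of 28 names rose on both probes at 3 h and at 6 h. These are 34 of the 51 CHS probes tested, where 37.5% of all tested probes rose at each time. Of these 17 names, 13 share a clone contig with another CHS name, and every CHS name known to be on such a contig rose. Contig chr2.CM0018 holds CHS08, CHS09, CHS10, CHS14, CHS15, CHS16, CHS17 and CHS18, contig chr1.CM0284 holds CHS12 and CHS13, and contig chr1.CM0591 holds CHS24, CHS25 and CHS27. Of the other 4 that rose, CHS03, CHS20 and CHS22 are the sole CHS names of their contigs, and the name of CHS28 gives no contig. Probes of close copies may bind each other's transcripts. Whether they do was not tested, because the probe sequences were not used here.

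CHS16 (CHS16_chr2.CM0018.1250.nc) had the largest rise of the 8 names of chr2.CM0018 at both times, by the brighter probe of each name. Its brighter probe, a label for the probe with the higher mean signal, had log2 signals of 8.97, 9.02 and 9.11 at 3 h and 9.25, 9.39 and 8.88 at 6 h, against 1.89, 2.03, 3.79 and 5.001 in unelicited leaves. The 6 GSH arrays lay within a narrow band above every unelicited array, and the unelicited arrays of slide 2 lay above those of slide 1. The log2 fold change was 5.86 (SE 0.66, adjusted p 2.05e-05) at 3 h and 6.00 (SE 0.66, adjusted p 1.62e-05) at 6 h. On slide 2 alone it was 4.64 and 4.78.

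CHS18 (CHS18_chr2.CM0018.710.nc), also on that contig, had 9.12, 9.20 and 9.32 at 3 h and 9.43, 9.55 and 9.03 at 6 h, against 2.24, 2.35, 3.96 and 5.05 in unelicited leaves. The order of the arrays was close to that of CHS16. It rose by 5.81 (SE 0.61, adjusted p 1.17e-05) at 3 h and by 5.94 (SE 0.61, adjusted p 9.38e-06) at 6 h.

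Over the 16 probes of the chr2.CM0018 names the median log2 fold change was 5.73 at 3 h, with a range of 5.40 to 6.72, and 5.77 at 6 h, with a range of 5.50 to 6.98. The 4 probes of the chr1.CM0284 names had medians of 5.55 and 5.59. The 6 probes of the chr1.CM0591 names had medians of 6.02 and 5.81. The 3 h medians within slide 2 were 4.68, 4.75 and 6.03 for the contigs in that order.

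Within the 10 names on chr2.CM0018 and chr1.CM0284, the brighter probes moved almost as one. After each probe was centred on its own mean, they spanned between 0.29 and 0.60 log2 units on any array. The other probes of the same 10 names spanned between 0.85 and 2.81, widest on the unelicited arrays of slide 1. In unelicited leaves the brighter probes of the chr2.CM0018 names lay at a median of 4.48 on slide 2 (3.29 to 5.61) and 2.37 on slide 1 (1.46 to 2.89), and the 2 ranges did not overlap. The dimmer probe showed the larger rise for 12 of the 17 names at 3 h and 9 of 17 at 6 h over all arrays, and for 14 of 17 at each time within slide 2.

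**Figure D2:**
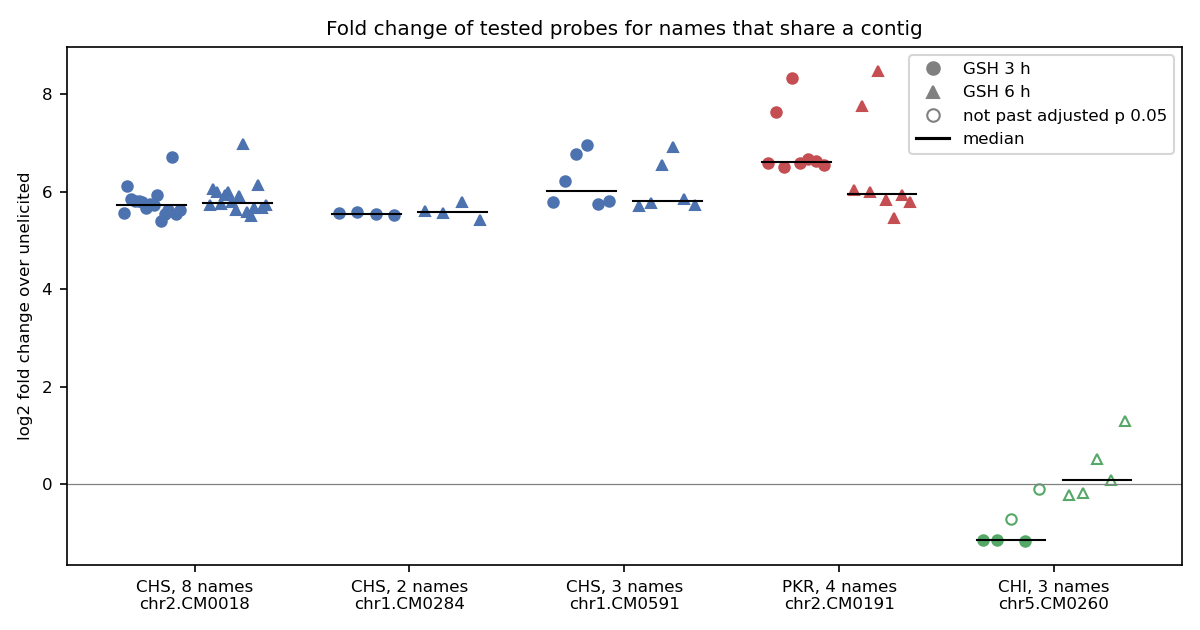
Log2 fold change over unelicited leaves of the tested probes for names that share a contig, at 3 h (circles) and 6 h (triangles), with medians as lines; open symbols did not pass adjusted p 0.05. The CHS and PKR contigs lie between 5.40 and 8.49 with every probe, and the CHI contig lies near or below 0 at 3 h.

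CHS24 (CHS24_chr1.CM0591.370.nd) had 7.15, 7.004 and 7.30 at 3 h and 7.09, 7.21 and 6.46 at 6 h, against −0.37, −0.30, 0.50 and 1.67 in unelicited leaves. It rose by 6.78 (SE 0.47, adjusted p 6.57e-07) at 3 h and by 6.54 (SE 0.47, adjusted p 7.66e-07) at 6 h. Its other probe rose by 6.97 and 6.93, the 3 h value from 2 arrays because 1 spot was an outlier. CHS25 and CHS27 on the same contig rose by 5.75 to 6.23 at 3 h over their 4 probes.

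CHS03 (CHS03_chr3.CM0216.300.nc) had the largest rise by the naming rule, which takes the brighter probe of each name. It had 8.11, 7.79 and 8.41 at 3 h and 7.38, 7.98 and 7.69 at 6 h, against 0.37, 1.40 and 1.65 in unelicited replicates 2 to 4, the spot of replicate 1 being an outlier. The groups were far apart, and the log2 fold change was 6.96 (SE 0.39, adjusted p 3.77e-07) at 3 h and 6.54 (SE 0.39, adjusted p 4.95e-07) at 6 h. Its other probe rose by 7.26 and 6.89.

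CHS28 (CHS28_LjSGA_132696.1) had 8.52, 8.61 and 8.91 at 3 h and 8.58, 8.97 and 8.23 at 6 h, against 1.45, 1.67, 2.21 and 3.17 in unelicited leaves. It rose by 6.56 (SE 0.41, adjusted p 3.18e-07) at 3 h and by 6.47 (SE 0.41, adjusted p 3.19e-07) at 6 h. CHS20 (CHS20_chr3.CM0590.740.nc) had 8.24, 8.15 and 8.43 at 3 h and 8.28, 8.48 and 7.85 at 6 h, against 1.60, 1.95, 2.37 and 3.63 in unelicited leaves. It rose by 5.88 (SE 0.44, adjusted p 1.09e-06) at 3 h and by 5.82 at 6 h, and its dimmer probe rose by 8.47 and 7.90, the highest value of any CHS probe in both comparisons.

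CHS22 (CHS22_chr4.CM0044.260.nd) had the 2 probes that differed most at 3 h among the CHS names that rose. Its brighter probe had 5.52, 5.07 and 5.31 at 3 h and 5.23, 5.49 and 4.88 at 6 h, against 0.53, 0.53, −0.15 and 1.09 in unelicited leaves, a rise of 4.80 (SE 0.33, adjusted p 5.55e-07) at 3 h and of 4.70 (SE 0.33) at 6 h. Its dimmer probe had −1.17, −0.66 and −1.05 at 3 h and 0.46, 0.56 and 0.36 at 6 h, against −2.46, −3.11, −3.18 and −2.49 in unelicited leaves. This probe rose by 1.85 (SE 0.28, adjusted p 0.00017) at 3 h and by 3.27 (SE 0.28, adjusted p 2.69e-06) at 6 h, and the 3 groups did not overlap. The unelicited arrays of both slides overlapped for both probes of CHS22.

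A second set of chalcone synthases fell. At 3 h CHS02, CHS04, CHS11, CHS26 and CHS29 fell on both probes and CHS23 on 1, and at 6 h all 6 fell on both. The names CHS02, CHS04, CHS11 and CHS23 share no contig with another CHS name, and those of CHS26 and CHS29 give none. Of the 51 CHS probes tested, 11 fell at 3 h and 12 at 6 h, where 36.7% and 38.4% of all tested probes fell. Over the 11 CHS probes that fell at 3 h the median log2 fold change was −4.47, and over the 12 at 6 h it was −4.94.

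CHS11 (CHS11_chr1.CM0593.380.nc) had the deepest fall of the CHS names. Its brighter probe had −1.89, −2.27 and −2.82 at 3 h and −3.53, −2.93 and −2.19 at 6 h, against 5.27, 5.23 and 3.52 in unelicited replicates 1, 2 and 4, the spot of replicate 3 being an outlier. The mean was −2.33 at 3 h, against 4.67 in unelicited leaves (SE of the difference 0.55, adjusted p 3.23e-06), and the log2 fold change at 6 h was −7.56 (SE 0.55, adjusted p 1.81e-06). With slide 2 alone the values were −5.85 and −6.40, where the unelicited side was replicate 4 alone. The other probe fell by 7.85 at 3 h. It was not well above background on any 6 h array, where it was at least 147-fold lower than in unelicited leaves. That bound is set by the dimmest probes that were still well above background. The probe was tested only because all unelicited arrays had it well above background, so a fall was favoured beforehand.

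CHS04 (CHS04_chr2.CM0903.140.nd) had −2.33, −2.19 and −2.30 at 3 h and −6.47, −2.85 and −1.09 at 6 h, against 3.25, 2.83, 3.08 and 3.27 in unelicited leaves. The 6 h arrays lay below every unelicited array, and the lowest of them, −6.47, was not well above background, so the 6 h spread and fold rest partly on that spot. Its log2 fold changes were −5.38 (SE 0.96, adjusted p 0.000522) at 3 h and −6.58 (SE 0.96, adjusted p 0.000119) at 6 h, and −5.08 (SE 0.45, adjusted p 1.19e-05) at 6 h without GSH 6 h replicate 1. On its other probe unelicited replicate 1 lay at −3.34, within the range of the GSH arrays, and the other 3 between 1.43 and 1.79. That probe's log2 fold change of −3.81 (adjusted p 0.0111) at 3 h became −2.86 (adjusted p 0.0512) when arrays were scaled to their median.

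CHS26 (CHS26_LjSGA_120506.1) had 1.57, 1.24 and 1.81 at 3 h and 0.43, −0.02 and 2.45 at 6 h, against 5.01, 5.13 and 7.88 in unelicited replicates 1 to 3, the spot of replicate 4 being an outlier. The log2 fold change was −4.47 (SE 0.84, adjusted p 0.00103) at 3 h and −5.05 (SE 0.84, adjusted p 0.000442) at 6 h. Its other probe had log2 fold changes of −6.09 and −5.49, with unelicited values between 2.22 and 2.79.

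CHS23 (CHS23_LjT33M20.40.nd) had −3.53, −3.21 and −3.92 at 3 h and −4.28, −4.16 and −3.19 at 6 h, against 2.46, 2.26, 0.83 and 1.71 in unelicited leaves, with log2 fold changes of −5.37 (SE 0.44, adjusted p 2.03e-06) at 3 h and −5.69 (SE 0.44, adjusted p 1.2e-06) at 6 h. Its other probe moved less. Its log2 fold change was −0.92 (adjusted p 0.072) at 3 h and −1.53 (adjusted p 0.00779) at 6 h. The 6 h call of that probe was lost under normexp background correction (−0.46), median scaling (−0.65) and quantile normalization (−0.83).

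CHS29 and CHS02 complete the names that fell. CHS29 (CHS29_LjSGA_022124.2) had log2 fold changes of −1.998 and −4.16 on its 2 probes at 3 h and −3.24 and −4.83 at 6 h, all past the threshold, and the 3 h value of the first probe was −1.05 (adjusted p 0.071) under median scaling. CHS02 (CHS02_chr1.CM0105.430.nc) had −2.52 and −3.23 at 3 h and −3.60 and −4.64 at 6 h, all past it too. Its second probe was well above background on 2 of 3 arrays at 3 h and 1 of 3 at 6 h, so its values rest partly on background signal. That probe was tested only because all unelicited arrays had it well above background, so a fall was favoured beforehand.

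CHS01, CHS05 and CHS07 did not pass on any tested probe at either time over all arrays. The brighter probe of CHS05 (CHS05_chr1.CM0178.460.nc) had 3.64, 4.09 and 3.58 at 3 h and 3.94, 3.93 and 3.85 at 6 h, against 3.48, 3.67, 3.76 and 3.81 in unelicited leaves. Its log2 fold change was 0.09 (SE 0.24) at 3 h and 0.22 (SE 0.24) at 6 h, and its direction depended on the scaling. At 3 h the same probe was called higher, by 1.03, under median scaling, and called lower, by −0.97 and −1.87, under the 75th percentile of probes detected on every array and under quantile normalization. CHS07 (CHS07_chr3.CM0091.780.nd) had a 3 h value of 0.47 (SE 0.22, adjusted p 0.0814), which likewise became a call in either direction with the scaling. The 2 probes of CHS01 (CHS01_chr1.CM0133.1050.nc) had values of −0.95 and −0.39 at 3 h and −1.61 and −1.24 at 6 h. Within slide 2 the 6 h values of CHS01 were −2.66 (adjusted p 0.00507) and −2.29 (adjusted p 0.0108), and both were calls, as was the 3 h value of the first probe, −2.002 (adjusted p 0.0210). The other probe of CHS05 was called higher there, by 0.70 (adjusted p 0.0318) at 3 h and 0.95 (adjusted p 0.00804) at 6 h, and CHS07 at 6 h, by 0.59 (adjusted p 0.0463). CHS06 and CHS21 were not tested, since neither was well above background on all arrays of any group.

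**Figure D3:**
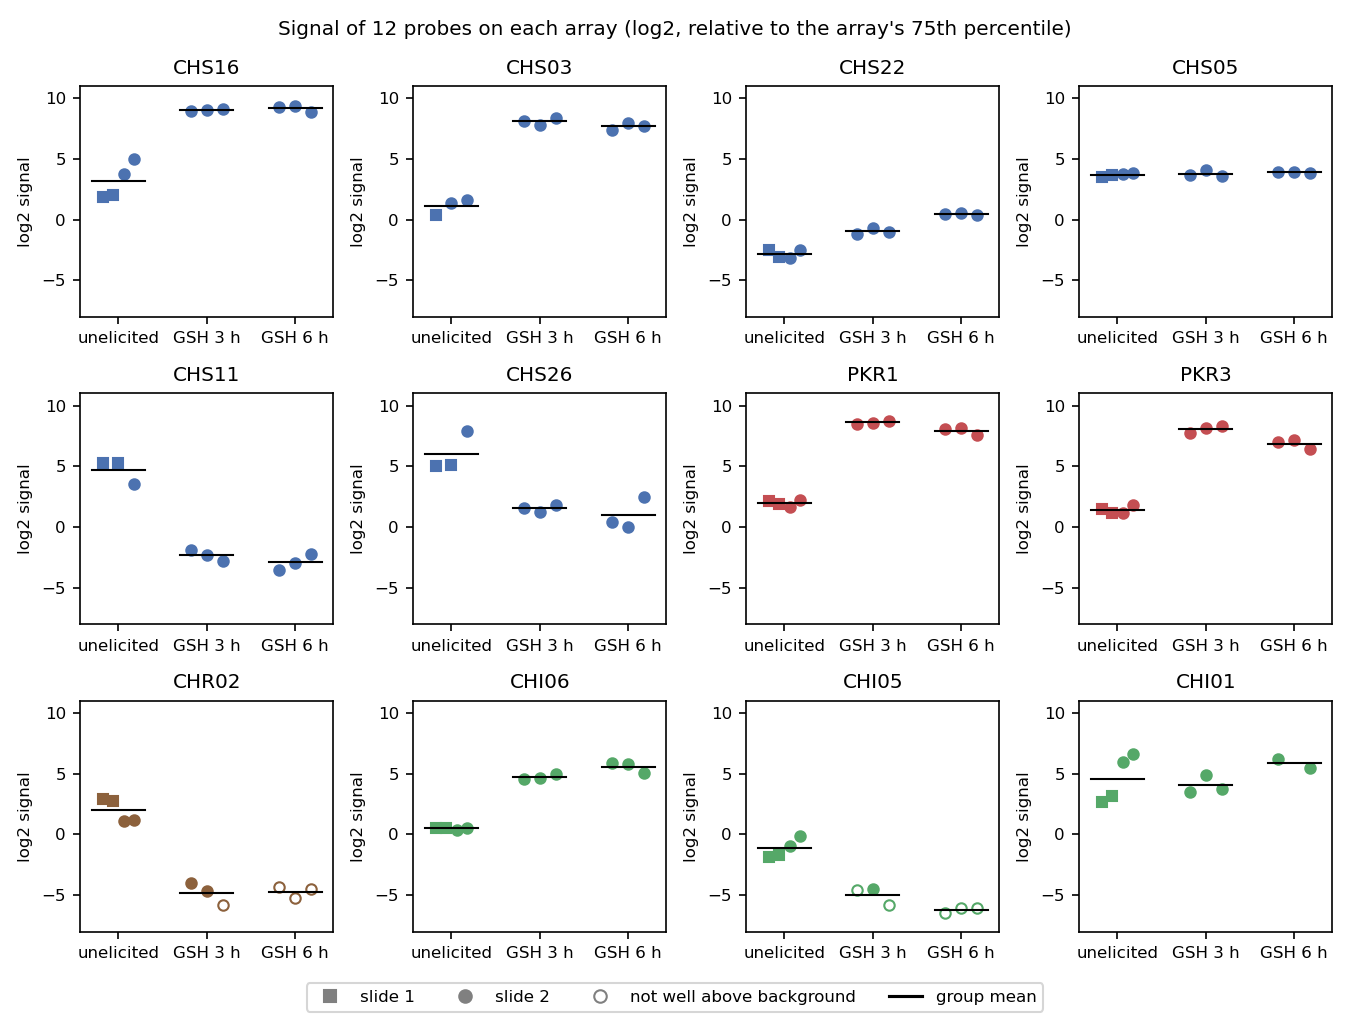
Log2 signal of 12 member probes on each array, in order of time, with squares for slide 1, circles for slide 2, open symbols where a spot was not well above background and lines for group means. CHS16, CHS03, PKR1, PKR3 and CHI06 stand higher on all 6 GSH arrays than on any unelicited array, CHS11, CHS26, CHR02 and CHI05 stand lower on all 6, and CHS05 and CHI01 overlap between the groups.

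All 5 polyketide reductase names rose on both probes at 3 h and at 6 h, 10 of 10 probes, where 37.5% of all tested probes rose. The median log2 fold changes were 6.60 (96.7-fold) and 5.97 (62.5-fold). PKR1, PKR3, PKR4 and PKR5 share contig chr2.CM0191. Their unelicited arrays differed little between slides, and the PKR medians on slide 2 alone were 6.65 and 6.03.

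PKR5 (PKR5_chr2.CM0191.410.nc) had 8.51, 8.47 and 8.82 at 3 h and 8.10, 8.31 and 7.75 at 6 h, against 2.18, 1.93, 1.66 and 2.29 in unelicited leaves. It rose by 6.58 (SE 0.27, adjusted p 3.16e-08) at 3 h and by 6.03 (SE 0.27, adjusted p 4.33e-08) at 6 h. PKR1 (PKR1_chr2.CM0191.390.nc) had 8.51, 8.55 and 8.76 at 3 h and 8.03, 8.14 and 7.56 at 6 h, against 2.14, 1.90, 1.67 and 2.21 in unelicited leaves. It rose by 6.63 (SE 0.26, adjusted p 2.81e-08) at 3 h and by 5.93 (SE 0.26, adjusted p 4.27e-08) at 6 h.

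PKR4 (PKR4_chr2.CM0191.400.nc) had 8.27, 8.36 and 8.78 at 3 h and 8.03, 8.28 and 7.55 at 6 h, against 2.00, 1.91, 1.65 and 2.26 in unelicited leaves. It rose by 6.52 (SE 0.28, adjusted p 4.43e-08) at 3 h and by 6.00 (SE 0.28, adjusted p 6.06e-08) at 6 h. The dimmer probes of PKR4 and PKR5 had larger rises, of 8.34 and 7.64 at 3 h and 8.49 and 7.76 at 6 h.

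PKR3 (PKR3_chr2.CM0191.480.nc) had 7.70, 8.16 and 8.34 at 3 h and 7.003, 7.18 and 6.40 at 6 h, against 1.49, 1.13, 1.19 and 1.79 in unelicited leaves. It rose by 6.67 (SE 0.30, adjusted p 5.64e-08) at 3 h and by 5.46 (SE 0.30, adjusted p 1.31e-07) at 6 h, and every 6 h array lay below every 3 h array.

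PKR2 (PKR2_LjSGA_019910.1), whose name gives no contig, had 6.53, 6.76 and 6.68 at 3 h and 6.47, 6.26 and 5.64 at 6 h, against 0.23, 0.18, −0.61 and 0.45 in unelicited leaves. It rose by 6.59 (SE 0.32, adjusted p 8e-08) at 3 h and by 6.06 (SE 0.32, adjusted p 1.04e-07) at 6 h. Its other probe had no unelicited array well above background. That probe was tested only because all 3 h arrays had it well above background, so a rise was favoured beforehand. It was at least 5.57-fold higher at 3 h and at least 2.91-fold higher at 6 h, where 2 of 3 arrays measured it. With normexp background correction the 6 h value of that probe was 1.00 (adjusted p 0.112).

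Of the 9 chalcone reductase names kept by the rule, only CHR02 could be tested, and it fell. Its probes were tested only because all unelicited arrays, the higher group, had them well above background. A fall was thus favoured beforehand, and its p-values are no independent support for it. CHR02 (CHR02_LjT35G18.70.nd) had −3.99, −4.66 and −5.80 at 3 h and −4.37, −5.21 and −4.53 at 6 h, against 2.92, 2.74, 1.14 and 1.17 in unelicited leaves. The unelicited arrays of slide 1 were the higher pair, opposite to most CHS probes. It fell by 6.81 (SE 0.57, adjusted p 2.49e-06) at 3 h, where 2 of 3 arrays measured it, and the value on slide 2 alone was −5.97. At 6 h neither probe was well above background on any array, and they were at least 74.7-fold and at least 48.4-fold lower than in unelicited leaves. The remaining 16 CHR probes, for 8 names, were not well above background on all arrays of any group, and 13 of them were not well above background on any array.

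Chalcone isomerases did not move together. CHI06 rose on both probes at both times, CHI05 fell on both at both times, and no probe of the other 4 names rose. Of the 11 CHI probes tested, 2 rose, 5 fell and 4 did not pass at 3 h, and 2 rose, 2 fell and 7 did not pass at 6 h. That is 63.6% and 36.4% called, against 74.2% and 75.9% of all tested probes. The CHI medians were −0.70 at 3 h and 0.53 at 6 h. The sign turned to 0.24 at 3 h under median scaling, and at 6 h it turned to −0.53 under the 75th percentile of probes detected on every array, −1.17 under quantile normalization and −0.57 on slide 2 alone.

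CHI06 (CHI06_chr5.CM0034.130.nc) had 4.56, 4.68 and 5.01 at 3 h and 5.89, 5.81 and 5.05 at 6 h, against 0.52, 0.53, 0.38 and 0.55 in unelicited leaves. The 4 unelicited arrays were nearly equal across the slides. It rose by 4.26 (SE 0.28, adjusted p 4.09e-07) at 3 h and by 5.09 (SE 0.28, adjusted p 1.14e-07) at 6 h, and its other probe rose by 4.11 and 4.91.

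CHI05 (CHI05_LjSGA_035547.1) had −4.55, −4.47 and −5.85 at 3 h and −6.50, −6.05 and −6.06 at 6 h, against −1.85, −1.70, −0.97 and −0.10 in unelicited leaves. It fell by 3.80 (SE 0.48, adjusted p 4.62e-05) at 3 h, where 1 of 3 arrays measured it, and was at least 8.79-fold lower at 6 h. Its other probe was at least 8.07-fold lower at 3 h and at least 6.96-fold lower at 6 h. Under normexp background correction the 3 h values of the 2 probes were −1.01 (adjusted p 0.142) and −0.77 (adjusted p 0.234), and the calls were lost. Both probes were tested only because all unelicited arrays, the higher group, had them well above background, so a fall was favoured beforehand.

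CHI02, CHI03 and CHI04 share contig chr5.CM0260. CHI04 (CHI04_chr5.CM0260.400.nc) had 2.20, 2.10 and 1.94 at 3 h and 2.64, 3.11 and 3.40 at 6 h, against 2.83, 2.81, 3.65 and 3.59 in unelicited leaves. It fell by 1.14 (SE 0.32, adjusted p 0.00784) at 3 h, with no overlap, and had a value of −0.17 (adjusted p 0.64) at 6 h. Under median scaling its 3 h value was −0.19 (adjusted p 0.708), and at 6 h it was called lower, by −1.23 and −1.81, under the 75th percentile of detected probes and quantile normalization. CHI02 (CHI02_chr5.CM0260.390.nc) passed on its dimmer probe at 3 h, with −1.38, −0.24 and −0.86 at 3 h, against −0.04, 0.44, −0.07 and 1.05 in unelicited leaves (log2 fold change −1.17, SE 0.44, adjusted p 0.0349). That call was lost without unelicited replicate 2 or 4 or without GSH 3 h replicate 1 or 3 (adjusted p 0.0627, 0.0815, 0.137 and 0.0838), under normexp (−0.93) and under median scaling (−0.23).

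CHI01 (CHI01_) had the widest gap among tested members between the unelicited arrays of slide 2 and slide 1, 3.33. It had 3.51, 4.88 and 3.70 at 3 h and 6.20 and 5.50 on the 2 arrays measured at 6 h, against 2.68, 3.19, 5.93 and 6.60 in unelicited leaves. The unelicited arrays of slide 1 lay below every GSH array and those of slide 2 above every 3 h array. The 3 h log2 fold change was −0.57 (SE 0.93, adjusted p 0.587) over all arrays and −2.24 (adjusted p 0.00312) on slide 2 alone. The brighter probe of CHI02 and the tested probe of CHI03 (CHI03_chr5.CM0260.370.nc) behaved alike, with −0.70 and −0.09 over all arrays against −2.20 (adjusted p 0.00386) and −1.42 (adjusted p 0.0313) on slide 2 alone. On slide 2 alone 9 of the 11 CHI probes were called lower at 3 h and 2 at 6 h, where 38.2% and 39.6% of all tested probes were.

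Few members passed between the elicitation times in the fit over all arrays. All GSH arrays were on slide 2, but the spread in that fit also includes any gap between unelicited arrays of different slides. With slide as a block the member fold changes were the same. Of all tested probes 361 were then higher and 299 lower, against 111 and 66 in the fit over all arrays. The low count of members thus does not show equal levels at both times. Of the 74 tested probes 1 was higher and 0 were lower at 6 h than at 3 h (limma, adjusted p under 0.05), where 5.35% of all tested probes passed, 3.35% higher and 1.99% lower, and 14 members had an unadjusted p under 0.05. The 1 that passed was the dimmer probe of CHS22, at 0.46, 0.56 and 0.36 at 6 h, against −1.17, −0.66 and −1.05 at 3 h (log2 fold change 1.42, SE 0.30, adjusted p 0.0266). Its brighter probe had a value of −0.10 (adjusted p 0.92). The call of the dimmer probe was lost on leaving out any of GSH 3 h replicates 1, 2 and 3 and GSH 6 h replicates 1 and 2, with adjusted p between 0.0520 and 0.119.

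By family, the median difference between 6 h and 3 h was −0.06 for CHS, −0.63 for PKR and 0.97 for CHI. None of the 10 PKR and none of the 11 CHI probes passed. PKR3 came closest, at −1.21 (SE 0.32, adjusted p 0.0613), and passed on slide 2 alone (adjusted p 0.0344). On slide 2 alone 3 probes were higher at 6 h (CHS22, CHI01 and CHI04) and 3 lower (CHS02, CHS29 and PKR3), where 15.3% of all probes passed, 8.37% higher and 6.89% lower. The 3 h and 6 h arrays were apart for 20 of the 74 members, against 38.4% of all tested probes.

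**Figure D4:**
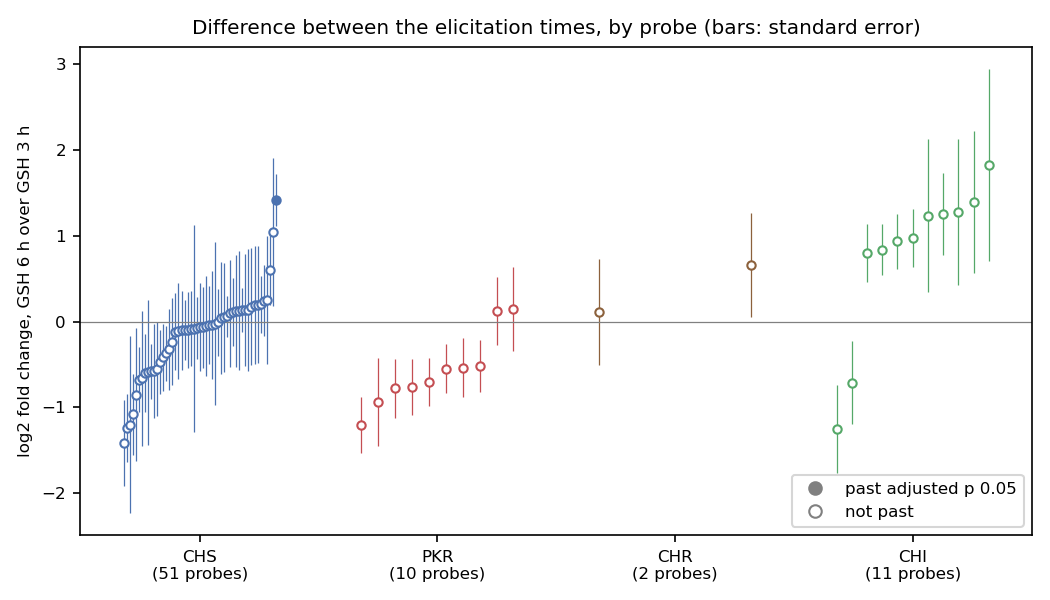
Log2 fold change of each tested member probe at 6 h over 3 h in GSH, with standard errors, by family; the single filled point is the dimmer CHS22 probe at 1.42. The CHS probes centre near 0, 8 of the 10 PKR probes lie below 0, and 9 of the 11 CHI probes lie above 0.

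For the rest of the pathway, counts are to be read against the 74.2% of all tested probes that passed at 3 h and 75.9% at 6 h. For phenylalanine ammonia-lyase, the entry to phenylpropanoids, 25 of 27 tested probes rose and 2 fell. For cinnamate 4-hydroxylase (C4H and CYP73A names), the next step, 20 of 20 rose with a median log2 fold change of 5.21, and CYP73A_LjSGA_031602.1 rose by 4.16 (SE 0.26). Names beginning CoumLig, read as coumarate ligases that make the coumaroyl-CoA starter, had 13 probes that rose and 8 that fell of 28, a share near that over all probes. At 6 h these counts were 25 and 2, 20 and 0, and 11 and 15, and 92.9% of the CoumLig probes were called.

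The 3 chalcone reductase names outside the rule moved both ways. At 3 h the 4 probes of CHR04 and CHR05 rose by 7.56 to 7.78, and the 2 of CHR01, on the same clone as CHR02, fell, with log2 fold changes of −8.88 and −9.46. Downstream, 8 of 8 probes of isoflavone synthase (CYP93C), which opens the isoflavonoid branch, rose at 3 h and at 6 h, with medians of 3.81 and 3.28. Hydroxyisoflavanone dehydratase, which completes that step, had 4 probes that rose and 6 that fell of 10 at both times. Isoflavone hydroxylases (CYP81E and I2H) had 6 that rose and 4 that fell of 10 at both times.

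Of the isoflavonoid O-methyltransferase probes 7 rose and 2 fell of 11 at 3 h, and 8 and 2 at 6 h, which is 81.8% and 90.9% called. On slide 2 alone 5 rose and 3 fell at 3 h, and 7 and 3 at 6 h. Of the late isoflavonoid enzymes (isoflavone reductase, and the names VR and PTR) 16 rose and 4 fell of 20 at 3 h, and 16 and 3 at 6 h. On slide 2 alone 14 of these rose and 4 fell at each time. The branch to flavonols, anthocyanidins and tannins also starts from a chalcone. There 4 rose and 16 fell of 23 at 3 h, with a median of −1.94, and 4 and 15 at 6 h, with a median of −1.75. That is 87.0% and 82.6% called. On slide 2 alone 2 rose and 17 fell at 3 h, and 4 and 17 at 6 h, where 78.0% and 79.1% of all probes passed. In this branch FLS03_chr4.CM0536.220.nd, read as a flavonol synthase, fell by 4.10 (SE 0.29) at 6 h. The difference between these lists was not tested.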

How the data were processed

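Spot intensities were deposited as linear values. The submitters' processing notes name Agilent Feature Extraction, version 10.7.3.1, as the scanner software, and per the file headers their background was subtracted and arrays were not normalized to each other. The other deposited columns used are scanner flags for outlier, saturated and well-above-background spots, and names. Here outlier spots were left out, the processed signal was divided by its 75th percentile among the non-control probes of that array before log2 was taken, and a probe was tested if all arrays of a group, or of several, had it well above background (3310, of which 3309 had an estimate). Group means over all 10 arrays were fitted in limma 3.58.1 (R 4.3.3) with eBayes, two-sided, with Benjamini-Hochberg adjustment at 0.05 over all tested probes. Figures were drawn with matplotlib 3.10.9. The code was tested on simulated data.

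The members and lists were chosen with earlier results of these data known. The planned pattern 4CL met no name, and CoumLig was added after names were read. Values per array are given, per family and comparison with unelicited leaves, for up to 5 rises and 4 falls, for up to 3 each way between the times, and for the member with the highest unelicited signal, which only picks what is shown, 1 probe per name, chosen among probes that passed, were well above background throughout the higher group and did not overlap. CHI01, CHI02 and CHS05 and other values beside these were chosen after values were seen, CHS05 and CHI02 for their dependence on scaling and replicates.

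None of the 40429 genes of the reference table (LjGifu assembly) carries a member name as its symbol, so names are as in the files. A bound ("at least") is set against the higher of the probe's own signal and the lowest signal among probes well above background, per array. Bounds were not tested themselves and hold for the deposited background correction only. Replicate numbers were not used to pair samples in the main fit. Same-numbered arrays of different groups correlated at −0.04 to 0.06 and other-numbered ones at −0.12 to 0.15, which with so few arrays cannot exclude pairing. Slide and scan coincide in the headers.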

Additional observations from a re-analysis of the deposited data

Results flagged for a closer look

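The dimmer probe of CHS22 was higher at 6 h than at 3 h in GSH, by 1.42 on the log2 scale. This is a difference between the 2 elicitation times, not a contrast with unelicited leaves. That call was lost under normexp, median scaling and quantile normalization, and on leaving out most single GSH arrays. The brighter probe of CHS22 did not show the difference, with −0.10.

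CHR03 (CHR03_LjT35G18.90.nd), not tested because it was never well above background on all arrays of a group, was well above background with 1 probe on 4 of 6 GSH arrays and on 0 of 4 unelicited arrays. Its log2 signals were −4.38, −4.67 and −6.27 at 3 h and −3.78, −3.76 and −4.48 at 6 h, against −6.80, −7.13, −5.46 and −7.25 in unelicited leaves. The difference was not tested.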

How the results depend on the processing

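Member counts against unelicited leaves kept within 1.5 times of 46 higher and 18 lower (3 h) and 46 higher and 16 lower (6 h) under other background correction, scaling, outlier, variance, slide and replicate settings. Exceptions followed from fewer probes tested: with 1 probe per locus 23 rose and 9 fell at 3 h and 23 and 8 at 6 h, and with only probes detected in all groups 10 fell at 3 h and 7 at 6 h. With the replicate block 46 rose and 18 fell at 3 h and 48 and 16 at 6 h, and 0 were higher and 0 lower at 6 h than at 3 h. Leaving out 1 array gave 46 higher and 17 to 19 lower at 3 h, 46 to 47 and 16 to 17 at 6 h, and 0 to 1 higher and 0 lower between the times.

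Between the times 0 were higher under normexp, median scaling, quantile normalization, no filter on dim probes, or 1 probe per locus, and 3 with slide as a block or slide 2 alone. Lower at 6 h were 1 (75th percentile of detected probes), 1 (only probes detected in all groups), 3 (slide as a block), 3 (slide 2 alone) and 2 (only the 2 groups compared). Medians that changed sign were those of CHI, 0.24 (median scaling, 3 h), −0.53, −1.17 and −0.57 (75th percentile of detected probes, quantile and slide 2 alone, 6 h), and under normexp those of CHS (0.29) and of all members (0.29) between the times. The causes were not tested. Another scaling also moved all probes: the median 3 h change was −1.11 with the 75th percentile of detected probes (801 higher, 1660 lower; members 46 and 22) and 0.90 with median scaling (1591 and 838; members 49 and 13), against −0.05 (1240 and 1216). Dim signals limit the falls, since some tested probes, such as both of CHR02, were well above background on no 6 h array. Another 16 member probes were never well above background on any array and were not tested.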
